A study of Mus musculus with 19 samples.

Results

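The DNA replication machinery was described as 50 genes, taken by symbol from a fixed list of origin licensing, helicase, polymerase, clamp, fork and nucleotide supply genes, among 51912 genes in the count files. All 50 symbols matched exactly 1 gene. RNA of E13.5 mouse cortex had been sequenced from single embryos as 1 library each. The 7 ctrl embryos, for which the labels give no genotype beyond control, were compared with 5 cKO-E embryos, conditional mutants in which *Emx1*-Cre deletes *Ino80*, the ATPase of a chromatin remodeller, and with 7 dKO-E embryos, which carry *Emx1*-Cre with *Ino80* fl/fl and *Trp53* fl/fl and so lose the tumour suppressor p53 as well. Cre from the *Emx1* locus acts in cortical neural progenitors and their descendants, so interneurons, microglia and vessels in the same dissection keep both genes. The mice were of mixed C57BL/6 and 129 background.

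Chromosome replication starts in G1 phase, when the origin recognition complex, CDC6 and CDT1 load the MCM2-7 helicase onto DNA. In S phase the kinase CDC7 with its activator DBF4 helps CDC45 and the GINS complex to join MCM2-7 and form the active helicase. DNA polymerase alpha with primase then lays down primers, RFC loads the PCNA clamp, and polymerases delta and epsilon extend the new strands. In the embryonic cortex these genes serve the dividing progenitors, and neurons that have left the cell cycle express them at low level.

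The libraries held between 820915 and 8095810 counts on genes, and cKO-E D, dKO-E G and dKO-E E were the shallowest. Of the 50 members, 49 passed the filter on low counts in each comparison, and 46 had at least 10 counts in every library. The lowest count of a tested member in any library was 3, for *Rpa3*. *Cdt1*, which encodes the loader of MCM2-7, was listed at 0 in all 19 libraries and was not tested. It lies at chr8:122568015-122573554 on the plus strand of GRCm38, wholly inside the span of *Gm20388* on the same strand, which had 126 to 814 counts. Of 419 protein-coding genes inside a same-strand gene, 416 (99.3%) were likewise at 0 in every library, against 18.7% of those inside no other gene, so the 0 gives no measure of *Cdt1* expression.

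The targeted genes were examined first. *Ino80* counts were higher in both mutants, at 121 ± 7.23 CPM in ctrl (counts scaled to library size, mean ± SD, n = 7), 166 ± 17.7 CPM in cKO-E (n = 5) and 186 ± 14.9 CPM in dKO-E (n = 7). Counts over a whole gene include the exons that are not deleted, so they do not measure the deletion. *Trp53* was at 43.8 ± 5.6 CPM in ctrl, 39.2 ± 4.79 CPM in cKO-E and 34.5 ± 4.78 CPM in dKO-E, where it was lower than in ctrl by the edgeR quasi-likelihood test (log2 fold change -0.36 ± 0.10 SE, adjusted p = 0.0196).

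The summed level of the members was lowest in cKO-E. The sum ranged from 2726 to 3695 CPM in ctrl with a median of 3050, from 2398 to 2966 CPM in cKO-E with a median of 2566, and from 2882 to 3538 CPM in dKO-E with a median of 3029. The 5 cKO-E embryos gave 2566 CPM (A), 2810 CPM (B), 2398 CPM (C), 2449 CPM (D) and 2966 CPM (E). The ranges of all 3 groups overlapped. Within ctrl the sum also separated by the batch given in the labels, at 2726 to 3050 CPM in the 4 embryos of batch 1 and 3286 to 3695 CPM in the 3 of batch 2. It was 2398 to 2810 CPM and 2449 to 2966 CPM in the cKO-E embryos of batches 1 and 2, and 2882 to 3538 CPM, 3026 to 3164 CPM and 2924 CPM in the dKO-E embryos of batches 1, 2 and 3. In batch 2 alone, both dKO-E embryos were thus below all ctrl embryos. In litter 5, which spanned both batches, ctrl embryo F of batch 2 was at 3289 CPM and ctrl embryo D of batch 1 at 2962 CPM. The part of batch in these sums was not tested. In whole tissue, fewer replicating cells and less RNA of these genes per cell cannot be told apart.

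**Figure D1:**
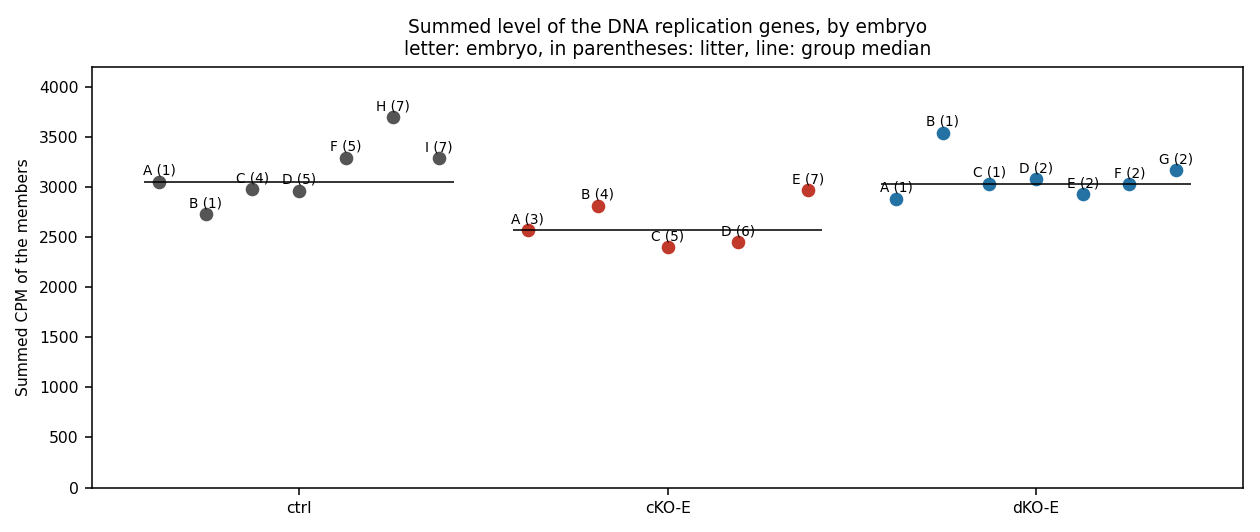
Summed CPM of the DNA replication genes (vertical axis) in each embryo of the 3 groups, with the embryo's letter and, in parentheses, its litter; lines mark group medians. Of the 5 cKO-E embryos, 3 lie below the lowest ctrl embryo (2726 CPM), and no dKO-E embryo does.

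In cKO-E against ctrl, the question was which replication genes differed where *Ino80* is deleted and p53 is present. Whether a gene depends on *Ino80* within a cell was not tested. Of 49 members tested, 10 were lower and 0 were higher at an adjusted p under 0.05, where 9.88% of all 11660 genes tested were lower and 7.31% higher. By unadjusted p values under 0.05 the counts were 16 lower and 0 higher, against 15.5% and 14.3% of all genes, and at a false discovery rate of 0.001 they were 3 lower and 0 higher, against 2.32% and 1.06%. DESeq2 called 13 lower and 0 higher, against 9.64% and 6.49% of all genes. The log2 fold change was below 0 for 41 of 49 members, against 46.6% of all genes, and its median was -0.16, against 0.02 over all genes. Within the batches the median was -0.12 in batch 1 and -0.23 in batch 2, where 7 and 4 members were lower, against 8.67% and 2.7% of all genes. The genes called were *Mcm2* and *Mcm6* of the helicase, *Orc3* of the origin recognition complex, *Pola1*, *Pola2* and *Prim1* of polymerase alpha-primase, *Pold1* and *Pold3* of polymerase delta, and *Tipin* and *Clspn* of the fork protection group. In 5 of these, *Mcm2*, *Orc3*, *Pola1*, *Prim1* and *Tipin*, every cKO-E embryo was below every ctrl embryo, which held for 5.49% of all genes.

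In dKO-E against ctrl, which asks what remains without p53, the counts went both ways. Of 49 members, 4 were lower (*Orc3*, *Pola1*, *Mcm2*, *Tipin*) and 3 were higher (*Prim2*, *Cdc45*, *Mcm5*), where 10% of 11381 genes were lower and 5.45% higher. At a false discovery rate of 0.001 the same 4 were lower and 0 were higher, against 2.34% and 0.246%. By unadjusted p values under 0.05, 5 were lower and 9 higher, against 16.5% and 13.1%. *Orc3*, *Pola1* and *Tipin* were below ctrl in every dKO-E embryo, as were 3.08% of all genes. The median member log2 fold change was 0.06, against 0.01 over all genes, and 32 of 49 members were above 0, against 51.4% of all genes. The sign of the median differed between the batches, at 0.17 in batch 1, with 5 members higher against 3.5% of all genes, and -0.15 in batch 2, with 0 higher against 0.709%. In dKO-E, embryos F and G of batch 2 and D of batch 1 came from litter 2, which held no ctrl embryo. Embryos A, B and C of batch 1 came from litter 1. Batch and litter are thus tied within dKO-E, and their parts in this difference cannot be told apart. The 7 ctrl embryos served in both comparisons, so their results are not independent.

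The mutants were then compared directly, without the ctrl embryos. In dKO-E against cKO-E, 11 of 49 members were higher and 0 lower, where 5.59% of 11746 genes were higher and 9.42% lower. By unadjusted p values under 0.05, 24 members were higher and 1, *Orc3*, was lower, against 12.7% and 14.8% of all genes. At a false discovery rate of 0.001 no member passed (0 higher and 0 lower, against 0.383% and 2.75%). DESeq2 called 10 higher and 0 lower, against 5.02% and 9.22% of all genes. The median member log2 fold change was 0.22, against 0.02 over all genes, and 46 of 49 members were above 0, against 54.1% of all genes. In *Clspn*, *Pola2*, *Prim2* and *Cdc45* every dKO-E embryo was above every cKO-E embryo, which held for 2.26% of all genes. The members called were *Clspn*, *Pola2*, *Mcm5*, *Tk1*, *Prim2*, *Pold1*, *Cdc45*, *Dbf4*, *Pold3*, *Rrm2* and *Prim1*. No litter held both mutant genotypes, so litter and genotype cannot be told apart here, and 5 of 7 dKO-E embryos were male where 4 of 5 cKO-E embryos were female. A fit with sex as covariate called 23 members higher and 1 lower, where 9.19% of all genes were higher and 11.7% lower. Within batch 2, with 2 embryos of each mutant, 0 of 48 members were called higher, where 0.231% of all genes were, and the median was 0.10.

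**Figure D2:**
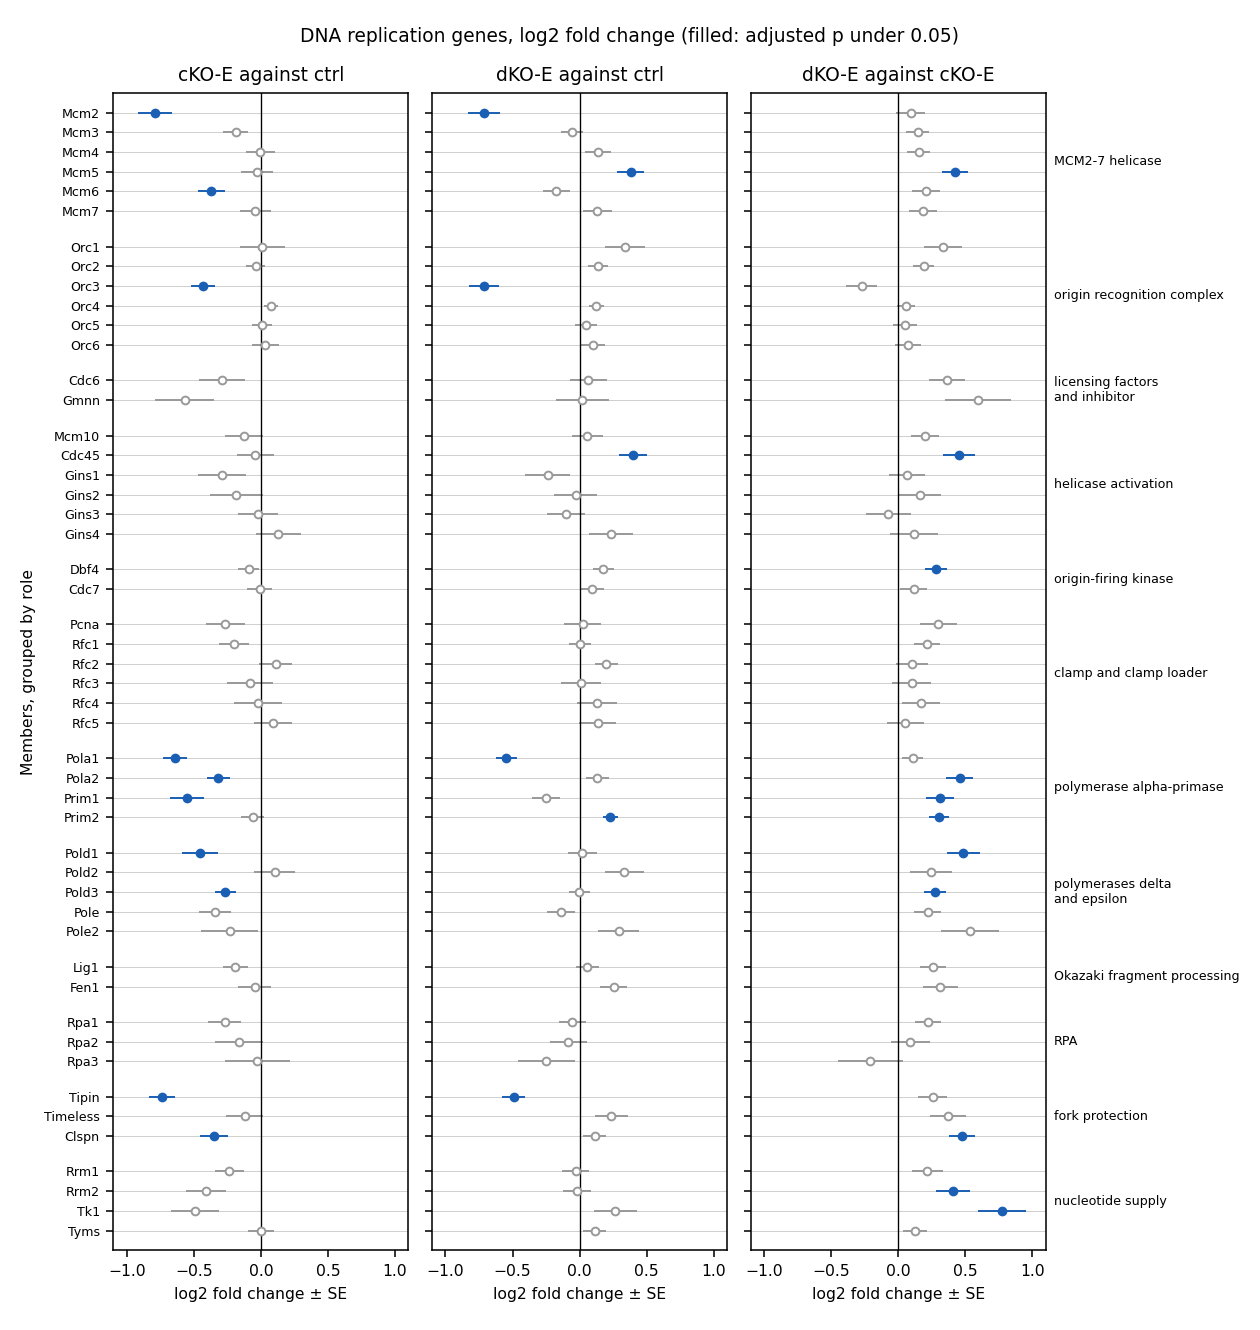
Log2 fold change ± SE (horizontal axes) of 49 members, grouped by role, in the 3 comparisons; filled points passed an adjusted p of 0.05. *Mcm2*, *Orc3*, *Pola1* and *Tipin* lie left of 0 in both mutants against ctrl, while 46 of 49 members lie right of 0 in dKO-E against cKO-E.

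The calls sorted the members into a few patterns. *Mcm2*, *Orc3*, *Pola1* and *Tipin* were lower than ctrl in both mutants, which is 4 of the 10 members lower in cKO-E and 4 of the 4 lower in dKO-E. *Clspn*, *Pola2*, *Pold1*, *Pold3* and *Prim1* were lower in cKO-E than in ctrl and higher in dKO-E relative to cKO-E. *Cdc45*, *Mcm5* and *Prim2* were higher in dKO-E than in either other group. *Dbf4*, *Rrm2* and *Tk1* passed only between the mutants, *Mcm6* passed only in cKO-E against ctrl, and 33 members passed in no comparison. Each pair of comparisons shares a group, so calls that recur in such a pair are not independent. How many of all genes followed each pattern was not counted, so the patterns describe these members only. A member that did not pass may still have changed. In simulated counts, 1.3-fold changes were recovered in 4.5% of changed genes for cKO-E against ctrl. The share was 23% for dKO-E against ctrl and 2% between the mutants.

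*Mcm2* encodes a subunit of the replicative helicase that also binds histones. It ranged from 93.1 to 153 CPM in ctrl, with a median of 108 CPM. Within ctrl it separated by batch, at 93.1 to 108 CPM in batch 1 and 125 to 153 CPM in batch 2. The cKO-E embryos gave 65.3 CPM (A), 75.4 CPM (B), 60.8 CPM (C), 55.4 CPM (D) and 74.2 CPM (E), and dKO-E embryos 60.1 to 96.5 CPM with a median of 65 CPM. All cKO-E embryos were below all ctrl embryos, whereas dKO-E embryo B at 96.5 CPM lay above the lowest ctrl embryo. Against ctrl the fit gave -0.79 (adjusted p = 0.000434, SE 0.13) in cKO-E and -0.71 (adjusted p = 0.000537, SE 0.12) in dKO-E. Between the mutants it was 0.09 (adjusted p = 0.643, SE 0.11).

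*Pola1*, the catalytic subunit of polymerase alpha that extends RNA primers into DNA, was likewise called in both mutants. Its level was 248 to 356 CPM in ctrl with a median of 289 CPM. In cKO-E it was 177 CPM (A), 213 CPM (B), 173 CPM (C), 162 CPM (D) and 213 CPM (E), and in dKO-E 172 to 225 CPM with a median of 207 CPM. No embryo of either mutant reached the lowest ctrl embryo. Its log2 fold change was -0.64 (adjusted p = 0.000104, SE 0.09) in cKO-E, -0.55 (adjusted p = 7.26e-05, SE 0.08) in dKO-E and 0.11 (adjusted p = 0.413, SE 0.08) between the mutants.

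*Tipin* encodes the partner of TIMELESS that holds the replication fork together. Ctrl embryos lay between 54.8 and 70 CPM, with a median of 59.8 CPM. The cKO-E values were 36 CPM (A), 39.3 CPM (B), 29.1 CPM (C), 40.1 CPM (D) and 39.6 CPM (E), and dKO-E values ran from 36.1 to 51.7 CPM with a median of 44.3 CPM. Both mutants were below ctrl without overlap. *Tipin* gave log2 fold changes of -0.74 (adjusted p = 6.95e-05, SE 0.10) in cKO-E and -0.49 (adjusted p = 0.000633, SE 0.09) in dKO-E, and 0.26 (adjusted p = 0.124, SE 0.11) between them.

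*Orc3*, a core subunit of the origin recognition complex, was the member with the lowest log2 fold change in dKO-E, just below *Mcm2*. It measured 59 to 82.3 CPM in ctrl (median 66.1 CPM), then 46.3 CPM (A), 53.9 CPM (B), 47.9 CPM (C), 48.4 CPM (D) and 53.9 CPM (E) in cKO-E, and 27.7 to 58 CPM in dKO-E (median 42.1 CPM). Every mutant embryo lay below every ctrl embryo, and dKO-E embryo A at 27.7 CPM was the lowest of all. Log2 fold changes were -0.43 (adjusted p = 0.00314, SE 0.09) in cKO-E and -0.71 (adjusted p = 0.000177, SE 0.11) in dKO-E. *Orc3* was the only member of this pattern to be lower in dKO-E relative to cKO-E at an unadjusted p under 0.05, and the adjusted p of 0.13 did not pass (log2 fold change -0.27, SE 0.12).

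**Figure D3:**
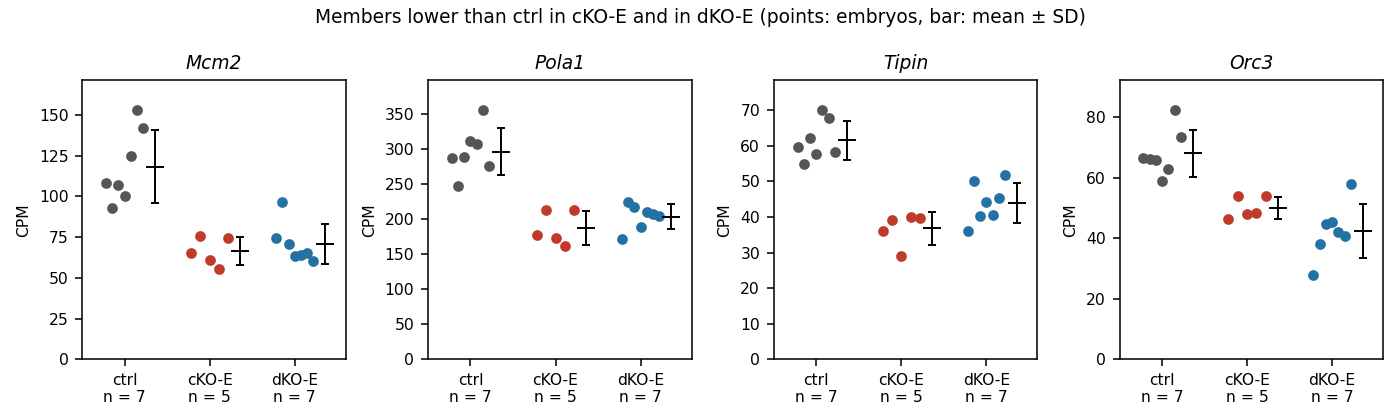
CPM of *Mcm2*, *Pola1*, *Tipin* and *Orc3* (vertical axes, from 0) in 7 ctrl, 5 cKO-E and 7 dKO-E embryos; points are embryos and bars mean ± SD. Mutant embryos lie below ctrl embryos in all panels, except dKO-E embryo B for *Mcm2* at 96.5 CPM.

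Litters allowed some of these values to be checked among littermates. Litters 4, 5 and 7 each held 1 cKO-E embryo and 1 or 2 ctrl embryos, and litter 1 held 3 dKO-E and 2 ctrl embryos. Over the whole set, 27, 43 and 40 of 49 members were below ctrl littermates in the cKO-E embryos of litters 4, 5 and 7, with median differences of log2 CPM of -0.03, -0.34 and -0.17. The share of all genes below littermates was not counted in any litter. In litter 5 the cKO-E embryo and ctrl embryo D were of batch 1 and ctrl embryo F of batch 2, so that difference also spans batches. In litter 1, 8 of 49 were below in dKO-E, with a median of 0.19. The cKO-E embryo of litter 4 thus had members on both sides of its ctrl littermate in near equal number. *Mcm2* differed from ctrl littermates by -0.50, -0.87 and -0.99 (difference of log2 CPM with a pseudocount of 0.5) in the cKO-E embryos of these litters, and *Tipin* by -0.66, -1.11 and -0.66. *Pola1* differed by -0.44, -0.84 and -0.55 and *Orc3* by -0.29, -0.34 and -0.53. In litter 1 the dKO-E differences were -0.33 for *Mcm2*, -0.39 for *Pola1*, -0.45 for *Tipin* and -0.86 for *Orc3*. With litter as a block, all 4 genes stayed called in cKO-E. In dKO-E *Orc3* stayed called (adjusted p = 0.00555) while *Pola1* (-0.38, adjusted p = 0.0691), *Tipin* (-0.43, adjusted p = 0.0793) and *Mcm2* (-0.32, adjusted p = 0.165) did not. Only litter 1 informs that fit.

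Polymerase alpha-primase was the role group with most of its genes called in cKO-E, 3 of 4. *Prim1*, the catalytic primase subunit, ranged from 33.7 to 57.4 CPM in ctrl (median 42.6 CPM). It gave 24.3 CPM (A), 29 CPM (B), 33.5 CPM (C), 30.7 CPM (D) and 31.5 CPM (E) in cKO-E and 30.1 to 39.9 CPM in dKO-E (median 38.5 CPM). The cKO-E embryos lay below all ctrl embryos, embryo C by a small margin, and dKO-E embryos overlapped both groups. *Prim1* gave a log2 difference of -0.55 (adjusted p = 0.00716, SE 0.13) in cKO-E, -0.25 (adjusted p = 0.122, SE 0.11) in dKO-E and 0.31 (SE 0.10) between the mutants, where the adjusted p was just under 0.05.

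*Pola2*, the regulatory subunit of the same complex, separated the mutants fully. Its levels in cKO-E were 33 CPM (A), 36.7 CPM (B), 35 CPM (C), 40.1 CPM (D) and 39 CPM (E), in dKO-E 41.1 to 57.7 CPM with a median of 50.2 CPM, and in ctrl 39.2 to 49.3 CPM with a median of 45.8 CPM. Every dKO-E embryo was above every cKO-E embryo. The log2 fold change was -0.32 (adjusted p = 0.0163, SE 0.09) in cKO-E against ctrl, 0.13 (adjusted p = 0.318, SE 0.08) in dKO-E against ctrl and 0.46 (adjusted p = 0.00414, SE 0.10) between the mutants.

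*Prim2*, the large primase subunit, was the member of this complex that was not lower in cKO-E, with a log2 fold change of -0.06 (adjusted p = 0.678, SE 0.08). It gave 209 CPM (A), 207 CPM (B), 176 CPM (C), 138 CPM (D) and 203 CPM (E) in cKO-E, 172 to 217 CPM in ctrl (median 198 CPM) and 213 to 245 CPM in dKO-E (median 237 CPM). The dKO-E embryos lay above all cKO-E embryos and overlapped ctrl. *Prim2* was higher in dKO-E than in ctrl (0.23 ± 0.06 SE, adjusted p = 0.0097) and than in cKO-E (0.30 ± 0.07 SE, adjusted p = 0.00902). The 4 subunits of polymerase alpha-primase therefore gave log2 fold changes from -0.55 for *Pola1* to 0.23 for *Prim2* in dKO-E.

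Polymerases delta and epsilon copy the lagging and the leading strand. *Pold1*, the catalytic subunit of polymerase delta, was at 19.3 CPM (A), 19.8 CPM (B), 15.5 CPM (C), 23.6 CPM (D) and 20.7 CPM (E) in cKO-E, against 21 to 31.5 CPM in ctrl (median 28.9 CPM) and 22.7 to 31 CPM in dKO-E (median 27.4 CPM). Embryo D was the only cKO-E embryo within the ranges of the other groups. For *Pold1* the log2 fold changes were -0.45 (adjusted p = 0.0275, SE 0.13) in cKO-E, 0.02 (adjusted p = 0.935, SE 0.11) in dKO-E and 0.48 (adjusted p = 0.0108, SE 0.12) between them.

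*Pold3*, an accessory subunit of polymerase delta, was at 88.2 CPM (A), 82 CPM (B), 76.2 CPM (C), 76.7 CPM (D) and 90.8 CPM (E) in cKO-E, 86.2 to 113 CPM in ctrl and 85.9 to 116 CPM in dKO-E. Its groups overlapped, with embryos A and E of cKO-E inside the ctrl range. For *Pold3* the fit gave log2 fold changes of -0.26 (adjusted p = 0.0227, SE 0.08) in cKO-E, -0.00 (adjusted p = 0.998, SE 0.08) in dKO-E and 0.27 (adjusted p = 0.029, SE 0.08) between them. *Pold2*, also of polymerase delta, and *Pole* and *Pole2* of polymerase epsilon passed in no comparison. Their log2 fold changes in cKO-E were 0.10, -0.35 and -0.23, and *Pole* was nearest to the threshold (adjusted p = 0.0546).

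The fork protection group holds *Tipin*, *Timeless* and *Clspn*, the last of which encodes the mediator that carries checkpoint signals from ATR to CHK1. *Clspn* was at 57.3 CPM (A), 63.4 CPM (B), 45.7 CPM (C), 43.6 CPM (D) and 59.6 CPM (E) in cKO-E, 60.9 to 81.9 CPM in ctrl (median 72 CPM) and 67.1 to 93.4 CPM in dKO-E (median 74.4 CPM). All dKO-E embryos were above all cKO-E embryos, and cKO-E embryo B was within the ctrl range. *Clspn* was lower in cKO-E than in ctrl (-0.35 ± 0.10 SE, adjusted p = 0.0249), not called in dKO-E (0.11 ± 0.09 SE, adjusted p = 0.401) and higher in dKO-E relative to cKO-E (0.48 ± 0.10 SE, adjusted p = 0.00272). *Timeless* gave -0.12 in cKO-E, 0.24 in dKO-E and 0.37 between the mutants, and passed in no comparison (adjusted p = 0.6, 0.197 and 0.0702).

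The subunits of the MCM2-7 ring, the motor of the helicase, gave different calls. *Mcm6* was at 67.3 CPM (A), 79.7 CPM (B), 68.9 CPM (C), 73.1 CPM (D) and 90.1 CPM (E) in cKO-E, 88.2 to 119 CPM in ctrl (median 102 CPM) and 58.7 to 98.5 CPM in dKO-E (median 92.8 CPM). Its cKO-E embryos were below the ctrl range except embryo E. *Mcm6* was lower in cKO-E (-0.37 ± 0.10 SE, adjusted p = 0.0161) and did not pass in dKO-E (-0.17 ± 0.10 SE, adjusted p = 0.254) or between the mutants (0.21 ± 0.11 SE, adjusted p = 0.215).

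*Mcm5* was not called in cKO-E. It was at 58.6 CPM (A), 70.8 CPM (B), 59.3 CPM (C), 66.1 CPM (D) and 78.6 CPM (E) in cKO-E, 58 to 91.4 CPM in ctrl (median 65.2 CPM) and 77 to 104 CPM in dKO-E (median 84.3 CPM). Its log2 fold change was -0.03 (adjusted p = 0.912, SE 0.12) in cKO-E, 0.38 (adjusted p = 0.0167, SE 0.10) in dKO-E and 0.42 (adjusted p = 0.00569, SE 0.10) between the mutants. Within the labelled batch 2, which held 2 dKO-E and 3 ctrl embryos, the dKO-E value for *Mcm5* was -0.01. *Mcm3*, *Mcm4* and *Mcm7* passed in no comparison, with log2 fold changes of -0.19, -0.00 and -0.04 in cKO-E and -0.05, 0.14 and 0.13 in dKO-E.

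Among the helicase activators, *Cdc45* stood at 35.3 CPM (A), 41.3 CPM (B), 25 CPM (C), 40.1 CPM (D) and 39.3 CPM (E) in cKO-E, 29.7 to 46.2 CPM in ctrl (median 35.6 CPM) and 42.1 to 57.2 CPM in dKO-E (median 46.4 CPM). The dKO-E embryos were above every cKO-E embryo and overlapped ctrl. The log2 fold change was -0.04 (adjusted p = 0.885, SE 0.14) in cKO-E, 0.40 (adjusted p = 0.0127, SE 0.10) in dKO-E and 0.45 (adjusted p = 0.0139, SE 0.12) between the mutants. Within batch 2 alone the dKO-E value against ctrl was 0.02. *Mcm10*, which assists the helicase, and *Gins1*, *Gins2*, *Gins3* and *Gins4* of the GINS complex passed in no comparison, with values in cKO-E from -0.29 (*Gins1*) to 0.13 (*Gins4*).

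*Dbf4*, the activator of CDC7, was at 68.3 CPM (A), 71.1 CPM (B), 63.7 CPM (C), 67.2 CPM (D) and 73.5 CPM (E) in cKO-E, 65.4 to 85.5 CPM in ctrl and 68.1 to 95.9 CPM in dKO-E. It was higher in dKO-E relative to cKO-E (0.28 ± 0.08 SE, adjusted p = 0.0272), while its difference from ctrl passed in neither mutant (-0.09 in cKO-E and 0.18 in dKO-E). The kinase subunit gene *Cdc7* gave -0.01 in cKO-E and 0.09 in dKO-E. Leaving out 1 embryo at a time took away the call of *Dbf4* in 5 of 12 fits, with an adjusted p of up to 0.0972.

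The nucleotide supply genes provide deoxynucleotides to the polymerases. *Tk1*, thymidine kinase of the salvage pathway, was at 25.3 CPM (A), 35.3 CPM (B), 20.3 CPM (C), 20.1 CPM (D) and 32.9 CPM (E) in cKO-E, 30.8 to 58.4 CPM in ctrl (median 35.3 CPM) and 35.1 to 62.2 CPM in dKO-E (median 47 CPM). It had the largest log2 fold change of the 11 members that were higher in dKO-E relative to cKO-E (0.77 ± 0.18 SE, adjusted p = 0.00574). Against ctrl it gave -0.49 (adjusted p = 0.0644, SE 0.18) in cKO-E and 0.27 (adjusted p = 0.288, SE 0.16) in dKO-E. *Rrm2*, the small subunit of ribonucleotide reductase, was higher in dKO-E relative to cKO-E (0.41 ± 0.13 SE, adjusted p = 0.0349) and gave -0.41 in cKO-E against ctrl (adjusted p = 0.0699). *Rrm1*, its large subunit, gave -0.23 and *Tyms*, thymidylate synthase, -0.00 in cKO-E, and neither passed in any comparison.

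**Figure D4:**
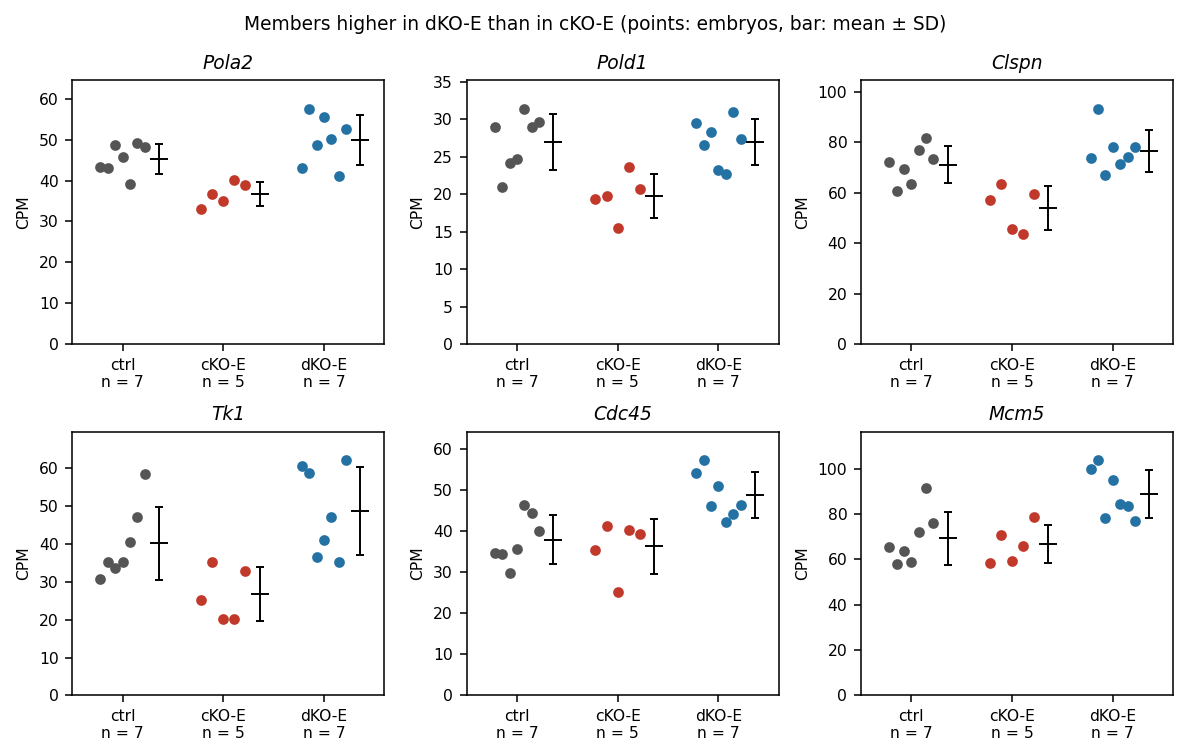
CPM of *Pola2*, *Pold1*, *Clspn*, *Tk1*, *Cdc45* and *Mcm5* (vertical axes, from 0) in 7 ctrl, 5 cKO-E and 7 dKO-E embryos; points are embryos and bars mean ± SD. The dKO-E embryos lie above all cKO-E embryos for *Pola2*, *Clspn* and *Cdc45*, and the groups overlap for *Pold1*, *Tk1* and *Mcm5*.

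The remaining members passed in no comparison. In the origin recognition complex the log2 fold changes in cKO-E of *Orc1*, *Orc2*, *Orc4*, *Orc5* and *Orc6* lay between -0.04 (*Orc2*) and 0.08 (*Orc4*), beside -0.43 for *Orc3*. *Cdc6*, the loading factor, gave -0.29 and *Gmnn*, which encodes the CDT1 inhibitor geminin, -0.57 (adjusted p = 0.0858, SE 0.22), from as few as 6 counts of *Gmnn* in a library. *Pcna*, the sliding clamp, gave -0.27, and the clamp loader genes ranged from -0.20 (*Rfc1*) to 0.11 (*Rfc2*), with *Rfc3* at -0.08, *Rfc4* at -0.02 and *Rfc5* at 0.09. Of the genes for Okazaki fragment processing, the ligase gene *Lig1* gave -0.19 and the flap nuclease gene *Fen1* -0.05. The single-strand binding protein genes *Rpa1*, *Rpa2* and *Rpa3* gave -0.27, -0.16 and -0.03.

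Promoters were read for up to 6 members, those with the smallest p in each role group with a called gene, to show the sequence before the start of genes that moved differently. RefSeq start sites on GRCm38.p6 matched 41 of 50 members, and *Tipin* was among the 9 without an entry. The 250 bases before the start are given 5′ to 3′, with motif letters in capitals. *Orc3*, *Mcm2* and *Pola1* were lower in both mutants, *Pold1* was lower in cKO-E and higher in dKO-E relative to cKO-E, *Tk1* passed only between the mutants, and *Cdc45* was higher in dKO-E.

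Pola1, chrX:93632156-93632405, minus strand: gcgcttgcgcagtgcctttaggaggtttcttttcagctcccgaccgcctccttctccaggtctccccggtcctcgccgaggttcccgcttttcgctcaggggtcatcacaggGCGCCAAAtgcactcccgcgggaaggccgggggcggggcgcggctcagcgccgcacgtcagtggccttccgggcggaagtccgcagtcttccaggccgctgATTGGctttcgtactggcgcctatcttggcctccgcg
Orc3, chr4:34614943-34615192, minus strand: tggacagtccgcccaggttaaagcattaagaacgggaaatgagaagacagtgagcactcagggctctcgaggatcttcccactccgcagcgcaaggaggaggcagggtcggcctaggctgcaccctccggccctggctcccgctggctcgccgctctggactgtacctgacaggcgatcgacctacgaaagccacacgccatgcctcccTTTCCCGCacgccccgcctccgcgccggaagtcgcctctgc
Mcm2, chr6:88898781-88899030, minus strand: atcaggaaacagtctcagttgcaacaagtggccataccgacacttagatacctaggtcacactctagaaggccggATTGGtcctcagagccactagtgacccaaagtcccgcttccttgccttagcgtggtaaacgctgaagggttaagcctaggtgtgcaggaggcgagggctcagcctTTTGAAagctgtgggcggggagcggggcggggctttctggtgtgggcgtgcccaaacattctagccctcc
Tk1, chr11:117826015-117826264, minus strand: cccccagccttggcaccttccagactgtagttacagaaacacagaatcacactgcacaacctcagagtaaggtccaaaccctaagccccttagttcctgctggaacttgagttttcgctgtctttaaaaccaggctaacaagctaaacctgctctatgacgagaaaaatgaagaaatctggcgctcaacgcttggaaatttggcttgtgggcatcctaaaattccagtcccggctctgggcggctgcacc
Pold1, chr7:44548816-44549065, minus strand: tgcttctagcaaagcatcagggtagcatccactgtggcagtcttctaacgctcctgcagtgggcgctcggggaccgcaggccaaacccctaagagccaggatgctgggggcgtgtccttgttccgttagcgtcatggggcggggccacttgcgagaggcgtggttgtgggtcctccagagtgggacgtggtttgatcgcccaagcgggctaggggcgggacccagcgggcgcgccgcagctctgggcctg
Cdc45, chr16:18811973-18812222, minus strand: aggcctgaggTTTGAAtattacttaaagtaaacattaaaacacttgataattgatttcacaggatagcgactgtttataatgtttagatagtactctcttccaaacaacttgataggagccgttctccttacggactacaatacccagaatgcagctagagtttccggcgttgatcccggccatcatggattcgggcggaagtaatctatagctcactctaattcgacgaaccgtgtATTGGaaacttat

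Motifs were searched on both strands of the 300 bases from 250 before to 50 after the start. They were E2F (TTTCCCGC, TTTGGCGC, TTTCGCGC or TTTGCCGC), the cell cycle element CHR (TTTGAA or TTCGAA), the CCAAT box (CCAAT) and YY1 (AANATGGC). The E2F letters were in 15 of 41 member promoters (36.6%), against 2.26% of 32851 promoter windows of all genes. Each member gave 1 window, at the start nearest its annotated gene start. The 32851 windows were all those of full length, without such a choice and whether or not the gene was expressed, so the shares are not strictly alike. CCAAT was in 58.5% against 37.4%, CHR in 19.5% against 19.2%, and the YY1 letters in 12.2% against 6.05%. E2F letters appeared once in each of the *Pola1*, *Orc3* and *Pold1* windows, in *Pold1* after the start and so outside the printed bases, and CCAAT and CHR letters in those of *Mcm2* and *Cdc45*. CCAAT was also in that of *Pola1*, and the *Tk1* window held none of the 4 motifs. The start used for *Tk1* lay 78 bases from the annotated gene start, so part of its printed stretch is inside the annotated gene. The distance was 34 bases for *Pold1* and at most 15 for the other printed genes.

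Other genes of the replication process, from lists of known genes, were counted in the same fits, and each count is to be read beside the shares of all genes called, 9.88% lower and 7.31% higher in cKO-E, 10% and 5.45% in dKO-E, and 9.42% and 5.59% in dKO-E relative to cKO-E. Of 23 further replisome and origin genes tested, 3 were lower and 0 higher in cKO-E. These were *Pclaf*, a PCNA partner (-0.62 ± 0.12 SE, adjusted p = 0.00155), *Ticrr*, which brings CDC45 to origins (-0.63 ± 0.12 SE, adjusted p = 0.00219), and the topoisomerase gene *Top1* (-0.26 ± 0.06 SE, adjusted p = 0.00789). In dKO-E *Top1* (-0.23, adjusted p = 0.00983) and *Pclaf* (-0.44, adjusted p = 0.0125) were lower, while *Mtbp* (0.32, adjusted p = 0.00996), the partner of TICRR, and *Atad5* (0.22, adjusted p = 0.0296), the PCNA unloader, were higher. Between the mutants 5 of 23 were higher and 0 lower, among them *Mcm9* (0.42, adjusted p = 0.00349) and *Ticrr* (0.42, adjusted p = 0.0262).

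Of 10 replication-coupled chromatin assembly genes, 1 was lower in cKO-E, the histone chaperone gene *Nasp* (-0.34 ± 0.08 SE, adjusted p = 0.00504), and in dKO-E 1 was higher, the histone mRNA binding gene *Slbp* (0.31, adjusted p = 0.0466). At 10% of the list, the cKO-E share is that of all genes. Of 10 other nucleotide supply genes, *Dut*, which encodes dUTPase, was lower in both mutants. Its log2 fold change was -0.61 ± 0.09 SE in cKO-E, with an adjusted p of 0.000214, and -0.36 ± 0.11 SE in dKO-E, with an adjusted p of 0.0382. Of 9 ATR checkpoint genes tested, *Etaa1*, an activator of ATR (-0.66 ± 0.12 SE, adjusted p = 0.000821), and *Wee1*, a kinase that restrains CDK1 (-0.37 ± 0.11 SE, adjusted p = 0.031), were lower in cKO-E. Both were higher in dKO-E relative to cKO-E (0.44, adjusted p = 0.0351, and 0.40, adjusted p = 0.0147), and neither passed in dKO-E against ctrl.

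Regulators of the replication genes were counted too. Of 19 genes for E2F, RB and DREAM, 5 were lower and 1 higher in cKO-E, and the smallest p belonged to *Lin9*, a DREAM and MYB-MuvB subunit (-1.05 ± 0.10 SE, adjusted p = 3.86e-06). *Lin9* was the only gene of that list called in dKO-E against ctrl (-0.89 ± 0.09 SE, adjusted p = 1.99e-06). *E2f2* (-0.56, adjusted p = 0.00574) was lower in cKO-E, and *E2f3* gave 0.40 between the mutants (adjusted p = 0.000261, SE 0.06). Of 9 S-phase cyclins and kinases, *Ccnd2* was lower in cKO-E (-0.38, adjusted p = 0.00794), *Cdk4* was higher in dKO-E (0.21, adjusted p = 0.0301), and *Ccnd1* was lower in dKO-E relative to cKO-E (-0.46, adjusted p = 0.036).

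The mitosis genes, which mark later phases of the same cell cycles, were 7 of 18 lower and 0 higher in cKO-E, 0 of 18 called in dKO-E against ctrl (0 also at an unadjusted p under 0.05) and 8 of 18 higher in dKO-E relative to cKO-E. Their summed level was 2250 to 2787 CPM in ctrl, 1709 to 2282 CPM in cKO-E and 2050 to 2997 CPM in dKO-E. Of the p53 targets, 13 of 15 were higher in cKO-E and 12 of 15 were lower in dKO-E relative to cKO-E. In dKO-E against ctrl only 7 of 15 passed the filter on low counts, and 0 were called. The rest were tested only in the comparisons that hold cKO-E, so the direction of their calls is not independent of the filter. *Cdkn1a*, the CDK inhibitor p21, was at 0.89 ± 0.6 CPM in ctrl, 10 ± 1.57 CPM in cKO-E and 0.583 ± 0.462 CPM in dKO-E. Its counts were 0 to 5 in ctrl and 0 to 11 in dKO-E libraries, mostly at or below the floor of 3 counts.

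Marker genes of the cell types in the dissection moved beside these values. In cKO-E, 4 of 9 apical progenitor markers tested were lower (*Prom1*, *Nes*, *Hes1*, *Pax6*) and 1 was higher (*Fabp7*), and their sum was 1049 to 1355 CPM against 1257 to 1397 CPM in ctrl and 1073 to 1319 CPM in dKO-E. Of 7 intermediate progenitor markers, 3 were lower in cKO-E (*Neurog2*, *Eomes*, *Mfng*), with sums of 346 to 444 CPM against 444 to 541 CPM in ctrl and 345 to 525 CPM in dKO-E. Sums of projection neuron markers were 3015 to 4764 CPM in ctrl, 3605 to 4500 CPM in cKO-E and 2594 to 3718 CPM in dKO-E. In ctrl they were 4078 to 4764 CPM in batch 1 and 3015 to 3263 CPM in batch 2, the batch whose ctrl embryos had the higher replication sums. Sums of microglia markers were 29.5 to 38.3 CPM in cKO-E, above 6 to 16.7 CPM in ctrl and 5.67 to 10.6 CPM in dKO-E, and those of Cajal-Retzius markers 762 to 886 CPM in cKO-E, above 478 to 608 CPM in ctrl and 413 to 590 CPM in dKO-E. Interneuron markers summed to 9.5 to 89.1 CPM in ctrl, 67.8 to 123 CPM in cKO-E and 30.7 to 71.4 CPM in dKO-E. Within ctrl these too differed by batch, at 55.3 to 89.1 CPM in batch 1 and 9.5 to 32.8 CPM in batch 2. Endothelial markers summed to 32.1 to 70 CPM in ctrl, 49.1 to 71.1 CPM in cKO-E and 35.6 to 85.7 CPM in dKO-E, and erythrocyte markers to 48.2 to 126 CPM, 58.6 to 88.2 CPM and 34.4 to 119 CPM. In dKO-E relative to cKO-E, 4 of 9 projection neuron and 4 of 4 interneuron markers tested were lower. So were 3 of 4 Cajal-Retzius and 2 of 2 microglia markers, with 0 higher in each list. The lists held 9 interneuron, 5 Cajal-Retzius and 10 microglia markers, and the others did not pass the filter on low counts. In dKO-E against ctrl 3, 3 and 1 of them were tested. Some were thus tested only in comparisons that hold cKO-E, and the direction of their calls is not independent of the filter. Of apical progenitor markers 2 of 9 were higher and 1 lower, where 5.59% of all genes were higher and 9.42% lower. In dKO-E against ctrl, 2 of 9 apical progenitor and 2 of 9 projection neuron markers were lower, where 10% of all genes were. *Sox2* and *Tubb3*, defining markers of progenitors and of neurons, were listed at 0 in all libraries. A 0 in these files can come from how reads were counted, as for *Cdt1*, and was not read as absence. The paper shows SOX2-positive progenitors in E13.5 cortex by staining. The part of these cell types in the values of the replication genes was not tested.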

How the data were processed

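RNA of E13.5 mouse cortex was sequenced as 1 Click-seq library per embryo. The authors depleted ribosomal RNA, trimmed adapters with cutadapt 1.13, aligned reads to GRCm38 with STAR 2.5.2a, collapsed reads that shared a molecular identifier (UMI-tools 0.5.3) and counted reads per gene with HTSeq 0.6.1p1; the deposited values are whole-number counts, not normalized. In these files a gene inside another gene of the same strand is nearly always at 0, as counting over whole gene spans by strand would give; the feature type counted is not given in the sources used here, introns may be included, and levels were not compared between genes. Gene symbols and positions came from GENCODE M21, which held 51719 of 51912 identifiers. Rows that name no gene were left out of library sizes: reads without a feature were 4.96 to 12.5% of each library's counts and ambiguous reads 1.78 to 2.07%.

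Embryos were grouped by genotype from the labels. Each comparison was a fit of its own in R 4.3.3 with edgeR 4.0.16: filterByExpr at a minimum count of 10, TMM normalization, the quasi-likelihood test and Benjamini-Hochberg adjustment over all genes tested, called at 0.05. The study used likelihood ratio tests at 0.001, which is given as an alternative threshold. Standard errors are the log2 fold change divided by the square root of F. CPM used TMM factors over all 19 libraries. The script was tested on simulated counts. None of 52 pairs of libraries within a group was identical or agreed within sampling noise (chi-square per degree of freedom of at least 1.42). The letters of the labels name embryos and do not pair them.

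Members given in full were those called with the smallest p, at most 8 per direction and comparison; in the lists of other genes, at most 4 per list and comparison. The members and lists were chosen with earlier results of these data known. P-values measure the spread between embryos, and the main fits treat littermates as independent. All dKO-E embryos came from litters 1 and 2. Same-litter correlations with ctrl exceeded 0.1 in 4 of 5 pairs for cKO-E and 2 of 6 for dKO-E. Their medians were 0.21 and 0.04, against -0.03 and 0.002 in other pairs. A count of 3 was taken as the floor. Alternatives were library totals, DESeq2 1.42.0, no filter, batch, sex, litter and letter terms, single batches or sexes, and leaving out embryos.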

Additional observations from a re-analysis of the deposited data

Results flagged for a closer look

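Within-group values were checked for an embryo far from the rest in 51 sets, the 15 members given in full and 2 summaries in each of 3 groups, and chance alone flags about 1 set in 20. 4 sets had such an embryo, all in dKO-E. Embryo B was the highest for *Clspn* (93.4 CPM, next 78.2 CPM, a gap of 0.577 of the group's range), for *Mcm2* (96.5 CPM, next 74.4 CPM, 0.606 of the range) and for the summed members (3538 CPM, next 3164 CPM, 0.570 of the range). Embryo A was the lowest for *Mcm6* (58.7 CPM, next 85.9 CPM, 0.683 of the range). A and B were littermates of litter 1.

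The effects of the mutant genotypes against ctrl differed for 11 members, by the direct comparison of dKO-E with cKO-E. No group analysed here had *Trp53* deleted alone, and litter and genotype cannot be told apart in this comparison; 0 members passed in batch 2 alone and 0 at a false discovery rate of 0.001. The log2 fold changes were 0.48 for *Clspn*, 0.46 for *Pola2*, 0.42 for *Mcm5*, 0.77 for *Tk1*, 0.30 for *Prim2*, 0.48 for *Pold1*, 0.45 for *Cdc45*, 0.28 for *Dbf4*, 0.27 for *Pold3*, 0.41 for *Rrm2* and 0.31 for *Prim1*.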

How the results depend on the processing

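The number of members lower in cKO-E than in ctrl was 10, against 9.88% of all genes. It was 3 at a false discovery rate of 0.001 and 4 in the labelled batch 2 alone (2 cKO-E against 3 ctrl), against 2.32% and 2.7%. With the letter of the label as a replicate block it was 6, against 8.9%. The data do not show that pairing, since same-letter correlations exceeded 0.1 in 1 of 4 pairs. Leaving out 1 embryo at a time gave 6 to 14 members lower in cKO-E. The 6 came without cKO-E embryo C, against 7.46% of all genes. The 14 came without ctrl embryo B or without cKO-E embryo E, against 10.3% and 9.95%. The median moved between -0.23 (without cKO-E embryo E) and -0.07 (without cKO-E embryo C). The 3 members higher in dKO-E than in ctrl, against 5.45% of all genes, became 9 with library totals, against 15.7%. With batch or sex as covariate they became 5, against 5.41% and 6.05%. In batch 1 alone they became 5, against 3.5%. They became 0 in batch 2 alone (where the median was -0.15) and 0 at 0.001, against 0.709% and 0.246%. In a fit added after seeing the data, 7 were higher without litter 7, against 5.53%. *Mcm5* reversed to -0.0088 in batch 2 alone. The 4 members lower in dKO-E became 1 with litter as a block, against 4.05% of all genes, and 4 to 5 without 1 embryo. The 5 came without ctrl embryo B, against 8.78%. The 11 members higher in dKO-E relative to cKO-E became 23 with sex as covariate (1 then lower), where 9.19% of all genes were higher and 11.7% lower. They became 0 in batch 2 alone and 0 at 0.001, against 0.231% and 0.383%. Without 1 embryo they were 7 to 13. The 7 came without dKO-E embryo B, against 3.99%, and also without cKO-E embryo C, against 2.91%. Without 1 embryo, 0 to 1 members were lower in dKO-E relative to cKO-E. The 1 came without dKO-E embryo G, against 8.82% of all genes. In such fits the medians were 0.03 (without ctrl embryo B) to 0.13 (without ctrl embryo H) for dKO-E against ctrl and 0.15 to 0.27 between the mutants. Leaving out the 3 libraries under 1200000 counts, also chosen after seeing the data, gave 10 lower in cKO-E, against 8.78% of all genes. It gave 3 higher and 4 lower in dKO-E, against 4.07% and 7.35%, and 8 higher between the mutants, against 3.75%. The causes were not tested. For members given in full, the alternatives kept direction and call in 208, 196 and 191 fits of the 3 comparisons, lost the call in 16, 6 and 17, and reversed in 0, 1 and 0. Depth limits *Rpa3*, *Gmnn* and *Gins2*, which had under 10 counts in a library.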
